A study of Mus musculus with 12 samples.

Results

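The genes described here are the chemokines, the interleukins and the receptors of both, as represented on Affymetrix MG_U74Av2 arrays. They were chosen by name: each probe set with a single annotated gene symbol that starts with Ccl, Cxcl, Ccr or Cxcr and a number, or with Il and a number, with the antagonist Il1rn left out. This gave 79 of the 8251 gene symbols on the array, on 93 of its 12488 probe sets: 22 chemokine ligands, 13 chemokine receptors, 19 interleukins, 23 interleukin receptors and 2 soluble inhibitors. A further 6 probe sets annotated with several symbols, 1 of them a chemokine or interleukin name, fall outside the rule.

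Total RNA came from tumors and from normal intestine of male Min/+ mice aged 91 days, all of which carry a mutant Apc allele and form intestinal adenomas. There were 6 tumor arrays and 6 normal intestine arrays. Each tissue was sampled on 3 diets, labelled by number only, from mice heterozygous for a DNA methyltransferase gene (Dnmt+/-) and from wild type mice (Dnmt+/+), with 1 array for each combination of tissue, diet and genotype. The groups were therefore Dnmt+/- tumor, Dnmt+/+ tumor, Dnmt+/- normal intestine and Dnmt+/+ normal intestine, with 3 arrays each. The tumor and the normal array of a diet and genotype share a sample code and are called a pair below. No intestine without the Apc mutation is among the groups, and the labels give neither the position of the tissue along the gut nor the number of tumors behind an array. They do not say whether a code is a single animal, and a p-value here describes only how far these samples scatter, which may in part be technical.

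Chemokines are small secreted proteins that attract leukocytes by binding receptors of the G protein-coupled class on their surface, and in the gut epithelium, stroma and resident leukocytes all make them. Interleukins are secreted signals among leukocytes and between leukocytes and epithelium. Their receptors mostly pair a chain specific to 1 ligand with a shared signalling chain and act through JAK kinases and STAT factors, whereas receptors of the IL-1 and IL-18 family act through MyD88, IRAK kinases and NF-kappaB.

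Many of these genes were dim. Values were quantile normalized, raised to a floor of 44.8 and tested where a feature's mean was not in the lowest 40%, a level of 99.4 intensity units. This left 6400 features, 1 for each gene where a gene had several probe sets. Of the 79 genes, 28 passed (35.4%), against 5648 of the 8251 gene symbols on the array (68.5%). The deposited values of the 4 diet #1 arrays had means of 306 to 403, and 40.9% to 46.0% of their probe sets carried the value 50. The 8 arrays of diets #2 and #3 were scaled to a mean of 1000 without such a floor. Of the 51 genes that did not pass, 37 carried the value 50 on all 4 diet #1 arrays, so dim genes were readable on diets #2 and #3 alone. Diet #1 and this format cannot be told apart.

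For the tumor against normal comparison, 8 of the 28 tested genes passed an adjusted p of 0.05 (28.6%), where 35.2% of all 6400 features did (limma, Benjamini-Hochberg over all features). Cxcl5, Cxcl1, Ccl9 and Il4ra rose in tumors, and Il18, Ccl5, Ccl25 and Cxcl12 fell. The 4 that rose are 14.3% of those tested, against 18.2% of all features, and the 4 that fell are also 14.3%, against 16.9%. The median difference was -0.12 on the log2 scale for the tested genes and 0.00 for all features, and the median size of the difference was 0.32 and 0.31. Tumor and normal arrays did not overlap for 3 of the 28 genes, where 11.2% of all features did not. The set as a whole thus changed about as often and as far as the features of the array in general, and the values below concern its single genes. In RNA of whole tissue, fewer cells of a type and less RNA per cell cannot be told apart.

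**Figure D1:**
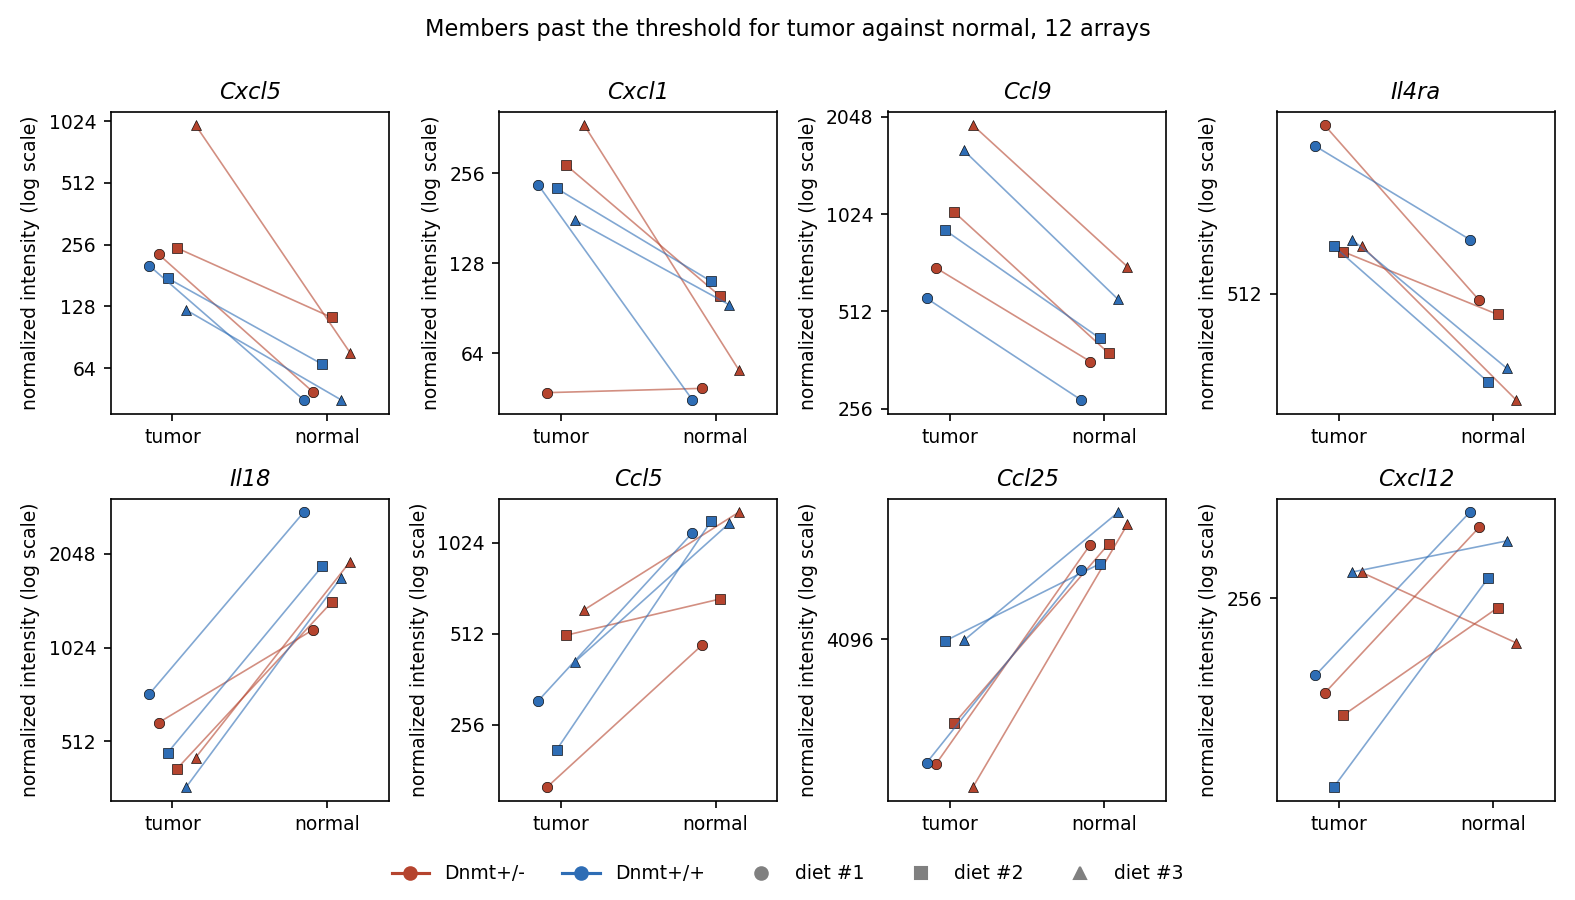
Normalized intensity (log scale) of the 8 genes past the threshold for tumor against normal, in 6 tumor and 6 normal arrays. Each line joins the tumor and normal array of a diet and genotype; colour gives the Dnmt genotype and shape the diet. Ccl25, Cxcl5 and Il18 have no overlap between tissues, 3 of the 28 tested genes, against 11.2% of all features. The Dnmt+/- tumor array of diet #3 stands high for Cxcl5 at 977.

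Among the chemokine ligands, 3 of 11 tested genes rose in tumors, where 18.2% of all features rose. Cxcl5 and Cxcl1 are ELR-type chemokines that attract neutrophils through Cxcr2, and Ccl9 is a ligand of Ccr1 that attracts myeloid cells. Cxcl5 had normalized intensities of 123 to 977 in tumors (median 216), against 44.8 to 113 in normal intestine (median 57.9), where 2 arrays lay at the floor. The groups did not overlap. The log2 difference was 2.01 ± 0.37 (SE, n = 6 arrays each), a 4.02-fold increase with an adjusted p of 0.00288 in limma, and all 6 pairs were higher. The diet #1 pairs differed by 2.23 and 2.17, from deposited values of 90.2 and 102 in tumors against the file floor of 50 in normal intestine. A fit of the diet #1 arrays alone gave a log2 difference of 0.90. On the Dnmt+/- tumor array of diet #3 Cxcl5 stood at 977 where the other tumor arrays lay between 123 and 246. Without that array the log2 difference was 1.61, with an adjusted p of 0.000682 in limma.

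Cxcl1 had 47.4 to 371 in tumors (median 231) and 44.8 to 111.6 in normal intestine (median 74.7), with 1 tumor array and 2 normal arrays at a floor, all on diet #1. It was higher in 5 of 6 pairs, by 1.41 ± 0.36 on the log2 scale or 2.67-fold, with an adjusted p of 0.0139 in limma. The tumor array that kept the groups overlapping was the Dnmt+/- one of diet #1. Without it, the log2 difference was 1.78. Without the 4 diet #2 arrays the log2 difference was 1.33, with an adjusted p of 0.0925 in limma.

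Ccl9 was measured well above every floor, at 562 to 1926 in tumors (median 975) and 273 to 704 in normal intestine (median 402). The lowest tumor arrays, both on diet #1, lay below the highest normal array, which was on diet #3, yet within every pair the tumor was higher. Its log2 difference of 1.26 ± 0.11 (2.39-fold, adjusted p 5.05e-05 in limma) had the smallest p of the 28. Over the pairs it ran between 0.96 and 1.53.

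The promoter regions of Cxcl1 and Ccl9, together with those of Il4ra and Il18 described further on, show how the genes that moved differ in the letters around their starts. Each covers 300 bases around the annotated start, from RefSeq. Capitals mark matches of the NF-kappaB consensus, searched on both strands.
Cxcl1 (GRCm38.p6, chr5:90890995-90891294, plus strand): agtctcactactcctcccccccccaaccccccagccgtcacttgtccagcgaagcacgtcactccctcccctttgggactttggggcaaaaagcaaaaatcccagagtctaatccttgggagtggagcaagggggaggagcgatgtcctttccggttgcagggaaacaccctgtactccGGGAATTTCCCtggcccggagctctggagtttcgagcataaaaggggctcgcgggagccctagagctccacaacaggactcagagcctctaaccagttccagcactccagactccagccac
Ccl9 (GRCm38.p6, chr11:83578587-83578886, minus strand): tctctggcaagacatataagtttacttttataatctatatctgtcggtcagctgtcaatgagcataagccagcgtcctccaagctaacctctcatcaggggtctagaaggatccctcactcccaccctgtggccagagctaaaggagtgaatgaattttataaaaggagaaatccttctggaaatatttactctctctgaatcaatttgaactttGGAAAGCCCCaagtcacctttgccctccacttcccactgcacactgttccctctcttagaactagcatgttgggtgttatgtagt
Il4ra (GRCm38.p6, chr7:125552021-125552320, plus strand): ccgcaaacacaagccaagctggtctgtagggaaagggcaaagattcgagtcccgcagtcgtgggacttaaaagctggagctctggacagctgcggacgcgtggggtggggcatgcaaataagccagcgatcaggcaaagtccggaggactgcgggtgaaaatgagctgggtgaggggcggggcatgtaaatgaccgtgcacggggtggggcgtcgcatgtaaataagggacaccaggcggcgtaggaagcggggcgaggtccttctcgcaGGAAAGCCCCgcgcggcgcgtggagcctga
Il18 (GRCm38.p6, chr9:50554450-50554749, plus strand): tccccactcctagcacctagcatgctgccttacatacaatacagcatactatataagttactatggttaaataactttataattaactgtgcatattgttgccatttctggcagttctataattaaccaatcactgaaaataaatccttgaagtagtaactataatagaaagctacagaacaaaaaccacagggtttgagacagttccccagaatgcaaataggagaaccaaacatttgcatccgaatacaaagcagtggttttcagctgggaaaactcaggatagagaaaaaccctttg
Cxcl1 held 2 matches that overlap each other and begin 71 bases before the start, and Ccl9 held 1 that begins 35 bases before it. Il4ra held 1 match just after the start, and Il18 held none. Of the 6 called genes with a listed promoter, Ccl9, Il4ra and Cxcl1 held the motif, and Cxcl12, Ccl25 and Il18 did not. Il1b and Il18bp, called higher and lower in a fit without diet #1 described further on, both held none. Ccl1, Ccr1, Ccr3, Cxcl2, Cxcl10, Il12rb2, Il2ra and Il6 held the motif and were not called for tissue. The motif was present in 8.18% of 27025 mouse promoters of this length. It stood in 11 of 62 promoters of the genes described here (17.7%). The letters TTTATG, part of sites of the intestinal factor Cdx2, stood in 10 of the 62 (16.1%), against 12.1% of all promoters. The letters CTTTGAT, which TCF factors bind, stood in 2 of the 62 (3.23%), against 3.72% of all, and Cxcl12 was the only called gene with them. A match is a description of the letters and says nothing about binding in these tissues. Cxcl5 and Ccl5 had no entry.

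Among the chemokine ligands, 3 of 11 fell in tumors, where 16.9% of all features fell. Ccl25 is made by small intestinal epithelium and draws Ccr9-bearing lymphocytes. It had 2269 to 4075 in tumors (median 2714), against 5411 to 6805 in normal intestine (median 5991), and the groups did not overlap. It was lower in all 6 pairs, by a log2 difference of -1.02 ± 0.15, which is 2.03-fold lower (adjusted p 0.000863 in limma). Of 11 intestinal epithelial markers tested, the keratins Krt18, Krt19 and Krt8 rose and Lct and Fabp1 fell. The rest did not pass, with log2 differences of 0.40 for Fabp2, 0.32 for Cdx1, 0.23 for Epcam and 0.22 for Lgals4. Those of Krt20 and Vil1 were 0.12 and -0.12. The summed level of the list was 137600 to 160500 in tumors and 98390 to 141400 in normal intestine. The receptor of Ccl25, Ccr9, did not pass the filter.

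Ccl5 recruits T cells, monocytes and eosinophils and is made by cytotoxic lymphocytes among other cells. It had 160 to 615 in tumors (median 361) and 469 to 1291 in normal intestine (median 1146). All 6 pairs were lower, with a log2 difference of -1.48 ± 0.31 or 2.80-fold lower (adjusted p 0.00503 in limma). The Dnmt+/- normal array of diet #1 lay within the range of the tumor arrays, and the smallest difference within a pair was -0.40, in Dnmt+/- mice on diet #2. Of 8 T and NK cell markers tested, 3 fell, Trgv4, Cd4 and Gzma, 0 rose and 5 did not pass, where 16.9% of all features fell. The summed level of the list was 1884 to 3241 in tumors and 3022 to 4697 in normal intestine. In Dnmt+/- mice on diet #3 that sum was 3241 in the tumor and 3043 in the normal array, while Ccl5 differed by -1.07. Their part in the Ccl5 difference was not tested.

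Cxcl12, which stromal cells make and which binds Cxcr4, had 135 to 280 in tumors (median 191) and 220 to 343 in normal intestine (median 292). The log2 difference was -0.49 ± 0.17 (1.41-fold lower, 5 of 6 pairs lower) with an adjusted p of 0.0498 in limma. With the sample code as a fixed replicate block, the adjusted p was 0.0814, and as a random block 0.0567. A second probe set of the gene differed by -0.03, with an adjusted p of 0.93 in the limma fit of every probe set. The mean difference of Cxcl12 between tumor and normal arrays was -0.80 on diet #1, -0.77 on diet #2 and 0.10 on diet #3.

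The other 5 ligands tested did not pass. Cxcl9, an interferon-induced ligand of Cxcr3, had a log2 difference of -0.79, with 47.4 to 190 in tumors and 48.9 to 279 in normal intestine. Ccl11, the eosinophil attractant eotaxin, differed by -0.25 and Ccl22, a ligand of Ccr4, by -0.12. Cxcl14 differed by 0.21 and Ccl6 by 0.01. Ccl6 was at 1123 and 1430 on the diet #1 tumor arrays and at 1229 and 1975 on the diet #1 normal arrays, while the arrays of diets #2 and #3 lay between 312 and 452 in tumors and 318 and 396 in normal intestine.

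Neighbouring genes could differ in direction. In the RefSeq annotation Ccl5, Ccl9, Ccl6, Ccl3 and Ccl4 follow each other, and of these Ccl9 rose and Ccl5 fell, Ccl6 did not pass the test and the last 2 did not pass the filter.

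**Figure D2:**
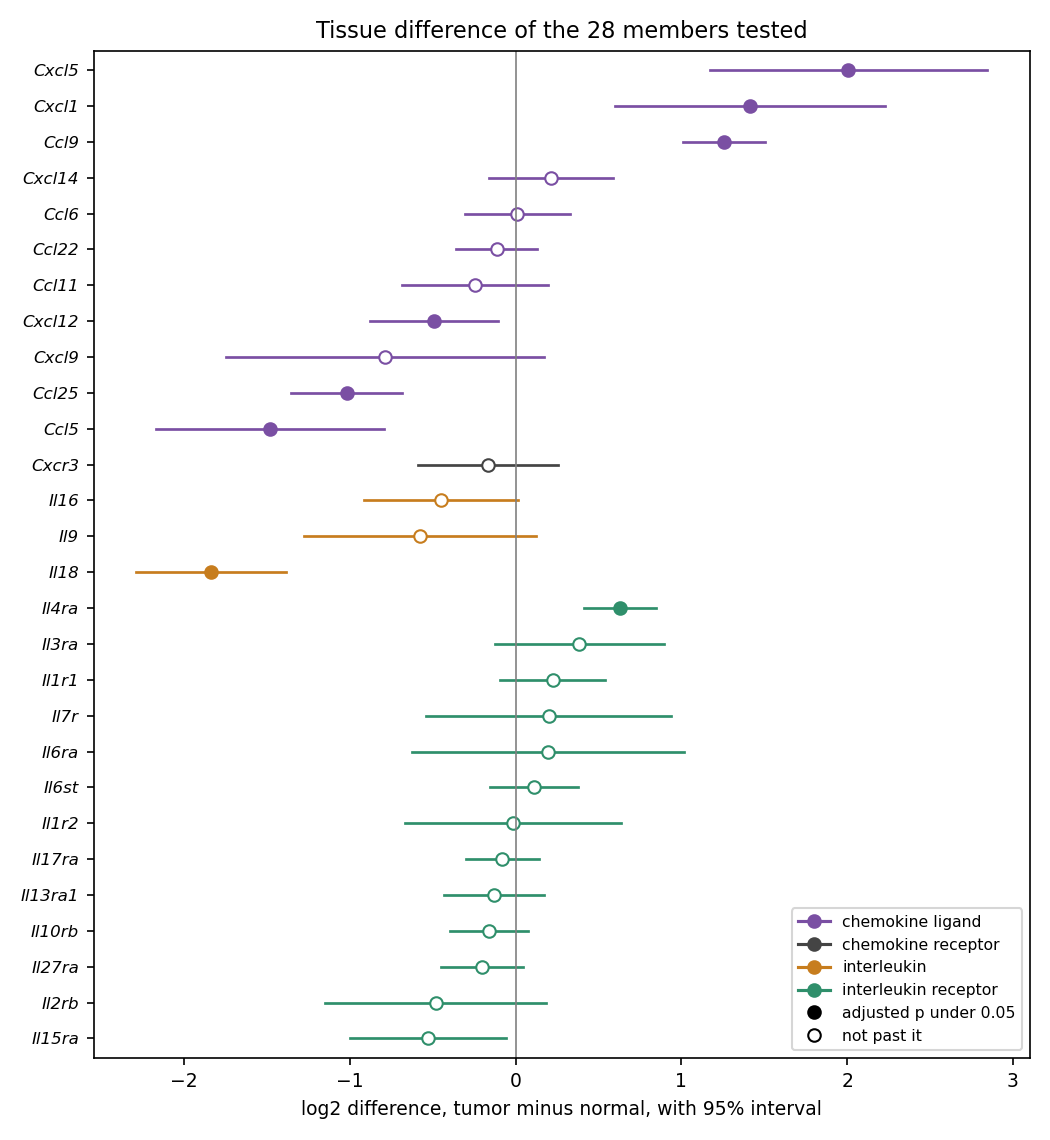
Log2 difference, tumor minus normal, with 95% intervals, for the 28 tested genes in 6 tumor and 6 normal arrays, grouped by role. Filled points passed an adjusted p of 0.05. The intervals of Cxcl5 and Cxcl1 are among the widest, and those of Ccl9 and Il4ra among the narrowest of the called genes.

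Of the 13 chemokine receptors, 12 did not pass the filter. Cxcr3, the receptor of Cxcl9 and Cxcl10 on activated T cells, was tested and differed by -0.17, at 40.5 to 363 in tumors and 54.0 to 364 in normal intestine. The highest values of both tissues came from diet #1.

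Among the interleukins, 1 of 3 tested genes fell and 0 rose, where 16.9% of all features fell and 18.2% rose. Il18, a cytokine of the IL-1 family made in precursor form by intestinal epithelium and macrophages, had 365 to 725 in tumors (median 462), against 1168 to 2789 in normal intestine (median 1793). The groups did not overlap, and the tumor was lower in all 6 pairs. The log2 difference of -1.84 ± 0.20 (3.58-fold lower, adjusted p 0.000166 in limma) lay between -0.99 and -2.23 over the pairs. The smallest was that of the Dnmt+/- mice on diet #1. Il16, a ligand of CD4, differed by -0.45 and Il9, a mast cell growth factor, by -0.58, and neither passed.

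Of the 13 interleukin receptor genes tested, 1 rose, Il4ra, against 18.2% of all features. It encodes the alpha chain shared by the receptors of IL-4 and IL-13. It had 592 to 921 in tumors (median 611) and 353 to 618 in normal intestine (median 435), with a log2 difference of 0.63 ± 0.10, or 1.55-fold (adjusted p 0.00115 in limma). It was higher in all 6 pairs. The 1 normal array among the tumor values was the Dnmt+/+ array of diet #1, the diet with the highest values in both tissues. A second, dimmer probe set of Il4ra had a log2 difference of -0.20 on diets #2 and #3, with an adjusted p of 0.463 in limma.

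The other 12 receptor genes did not pass. Il15ra had a log2 difference of -0.53 with an adjusted p of 0.0793 in limma. All 4 of its diet #1 arrays lay at the floor, while on diets #2 and #3 it had 149 to 311 in tumors and 287 to 492 in normal intestine. Il3ra was higher in 6 of 6 pairs by 0.38, with 55.2 to 287 in tumors and 48.4 to 255 in normal intestine. The differences were -0.48 for Il2rb, the chain shared by the IL-2 and IL-15 receptors, -0.21 for Il27ra, -0.16 for Il10rb and -0.13 for Il13ra1. They were -0.08 for Il17ra and -0.02 for Il1r2, the decoy receptor of IL-1. They were 0.22 for Il1r1, the signalling receptor of IL-1, 0.20 for Il7r, 0.20 for Il6ra and 0.11 for Il6st, the signalling chain gp130. Second probe sets differed by -0.21 for Il1r2 and -0.12 for Il17ra, with adjusted p-values of 0.161 and 0.623 in limma.

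Marker transcripts of cells that make or read these signals were tested in the same fit, where 35.2% of all features passed. By direction, 18.2% of all features rose and 16.9% fell. Of 7 mast cell markers tested, 6 rose in tumors and 0 fell, with a summed level of 9946 to 36600 against 1436 to 1964 in normal intestine. Mcpt4 and Tpsab1 were at the floor on all arrays. Fibroblast markers rose in 6 of 10, with 13090 to 16030 in tumors and 7961 to 9162 in normal intestine. Of the neutrophil markers Mmp9, Ly6g and Ltf rose (3 of 7). Csf3r, Camp, Itgb2 and Elane did not pass, with log2 differences of 0.31, 0.09, -0.12 and -0.31. Sums were 2118 to 3392 in tumors and 1790 to 2333 in normal intestine, and Mmp8 and Ngp stayed at the floor throughout. Of 11 macrophage and dendritic cell markers, Cd14 and Lyz2 rose and Csf1r and Cd68 fell. The others, Mpeg1, Msr1, C1qa, C1qb, C1qc, Aif1 and Itgax, were lower in tumors without passing, and the median log2 difference was -0.31. Sums were 14110 to 17190 in tumors and 11430 to 16440 in normal intestine. Lyz2, with medians of 7789 in tumors and 4812 in normal intestine, weighs heavily in them. Marco was at the floor on all arrays. Of 9 B and plasma cell markers 1 fell, Jchain, with sums of 31070 to 56060 in tumors and 39420 to 69940 in normal intestine. Of the 8 endothelial markers 2 rose and 1 fell, with sums of 2451 to 3856 in tumors and 2105 to 3440 in normal intestine. The part of these cells in Cxcl5, Cxcl1, Ccl9, Il4ra and Il18 was not tested. Pancreatic enzyme genes summed to 4364 to 12120 in tumors, whereas the 2 normal arrays of diet #2 had 209900 and 232700 and the other 4 normal arrays 3008 to 13610. Without the diet #2 arrays, 6 of the 8 called genes passed. Cxcl1 and Cxcl12 did not, at log2 differences of 1.33 and -0.35, and 1365 of all features passed, against 2251 with all 12 arrays.

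Genes that act downstream of the receptors, and other genes of both systems, were tested in the same fit, where 18.2% of all features rose and 16.9% fell. Of 15 JAK, STAT and SOCS pathway genes tested, 2 rose and 2 fell. The feedback inhibitor Socs3 rose by 0.62, Stat6, the factor that acts below Il4ra, fell by 0.44 and the kinase Jak2 fell by 0.42. Of 14 genes of the MyD88, IRAK and NF-kappaB route, 2 rose and 0 fell: Rela by 0.45 and Irak1 by 0.38. Among 17 other cytokines and receptors, 3 rose and 2 fell. Il1rn, which encodes the antagonist of the IL-1 receptor, rose by 2.84 on the log2 scale or 7.16-fold (adjusted p 0.00021 in limma), with medians of 946 in tumors and 154 in normal intestine. Csf2rb2, a beta chain of the IL-3 receptor in mice, rose by 1.27, and Lifr fell by 0.96. Of 9 other genes of the chemokine system, 2 rose and 2 fell. Arrb1, which desensitizes chemokine receptors, fell by 0.92, the chemoattractant Rarres2 fell by 0.79 and the G protein subunit Gnai2 rose by 0.44. The median difference of the 4 pathway groups lay between -0.14 and 0.10.

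Of the 51 genes that did not pass the filter, 27 were below 100 on every array, with deposited intensities between 0.99 and 97.2. They were the chemokines Ccl4, Ccl7 and Ccl12, the receptors Ccr1l1, Ccr3, Ccr4 and Ccr8, and the soluble inhibitor Il1f5. The interleukins among them were Il2, Il3, Il4, Il6, Il7, Il10, Il12a, Il12b, Il13, Il17a and Il17d. The interleukin receptor genes among them were Il2ra, Il5ra, Il9r, Il10ra, Il12rb1, Il12rb2, Il13ra2 and Il1rap. They thus include the T helper cytokines Il2, Il4, Il10, Il13 and Il17a. Il5 and Il9, also T helper cytokines, had deposited values of up to 124 and 182, and Il9 passed the filter. The other 24 genes exceeded the filter level on some array. Of these, 14 were at 50 on all 4 diet #1 arrays, and for the others the diet #1 values above 50 were as follows. Ccl1, on 1 of its 2 probe sets, had 111 and 144 in the Dnmt+/- and Dnmt+/+ tumor arrays and 92.9 and 129 in the normal arrays. Ccr6 had 108 in the Dnmt+/+ tumor and 156 in the Dnmt+/+ normal array, and Il5 had 114 and 58.5 in the Dnmt+/- and Dnmt+/+ tumor arrays. Ccl3 had 76.1 in the Dnmt+/+ tumor and 66.0 in the Dnmt+/+ normal array, and Ccr1 had 55.4 and 63.0 in the same arrays. Il18rap had 82.8 in the Dnmt+/+ tumor, Ccl8 had 81.5 in the Dnmt+/- normal, Cxcr5 had 57.2 in the Dnmt+/+ normal, Il15 had 53.4 in the Dnmt+/- tumor and Il1a had 51.4 in the Dnmt+/+ normal array. These readings stand in no common direction between the tissues.

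A fit without the diet #1 arrays and without the filter, added after seeing the data, covered all 79 genes among 9840 features. It called 10 of them (12.7%), 5 higher and 5 lower, where 18.7% of all features were called (10.0% higher, 8.65% lower; limma, adjusted p under 0.05). Besides Ccl9, Il4ra and Cxcl1, which rose, and Il18 and Ccl25, which fell, it called Ccl2 and Il1b higher and Il18bp, Il15 and Il17ra lower. Cxcl5 (adjusted p 0.0688 in limma) and Ccl5 (0.0631) did not pass it. Where 4 values of a tissue are given below, they are in the order Dnmt+/- and Dnmt+/+ on diet #2, then Dnmt+/- and Dnmt+/+ on diet #3. Without any model, 17 of the 79 had deposited intensities that did not overlap between the 4 tumor and 4 normal arrays, 13 higher and 4 lower (21.5%), against 24.1% of all features. The split by direction was not counted for all features. Deposited values lean toward tumors in general: on unnormalized values of all 12 arrays, the median log2 difference of all features was 0.13.

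**Figure D3:**
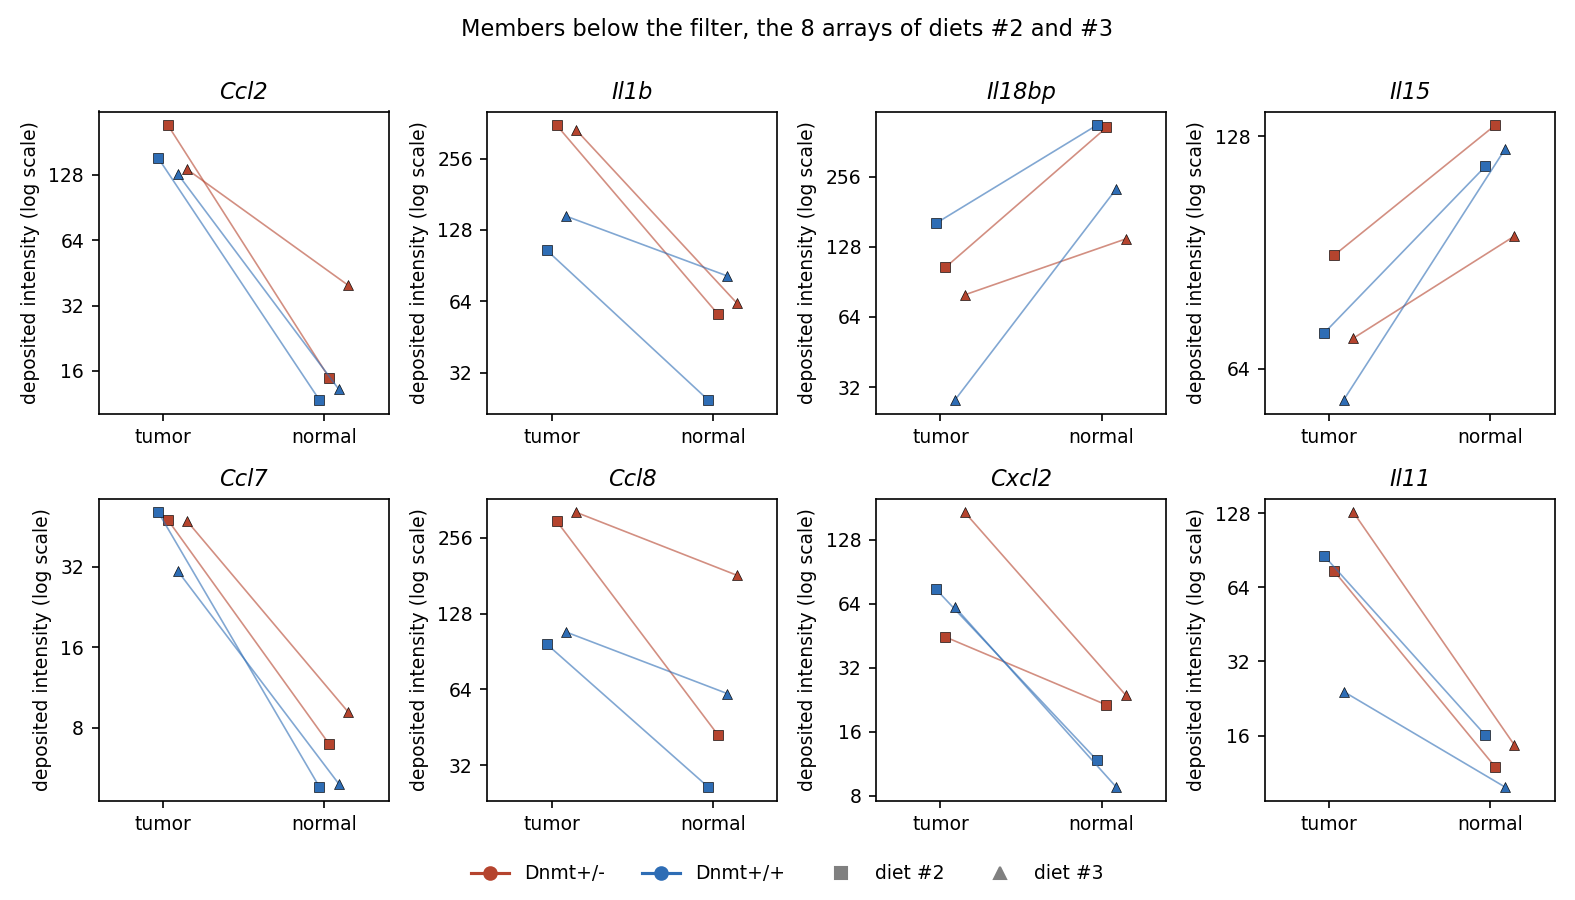
Deposited intensity (log scale) of 8 genes that did not pass the filter on all arrays, in the 4 tumor and 4 normal arrays of diets #2 and #3. Lines join the arrays of a diet and genotype. In each panel the tumor and normal values do not overlap, except for Ccl8 and Il18bp. Il18bp and Il15 run opposite to the rest.

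Ccl2, the monocyte attractant that binds Ccr2, was at 217 and 153 in Dnmt+/- and Dnmt+/+ tumors on diet #2 and at 136 and 129 on diet #3, against 14.9 and 11.8 and then 39.6 and 13.2 in normal intestine. After normalization, all 4 normal arrays were raised to the floor of that fit (38.7), which sets the Ccl2 fold of 3.63. The floor also takes the scatter of the normal arrays out of the SE and the p (log2 difference 1.86 ± 0.15, adjusted p 0.00423 in limma). The neighbours of Ccl2 on the chromosome are Ccl7, Ccl11, Ccl12, Ccl8 and Ccl1. Ccl7, another monocyte attractant, had 47.7, 51.1, 47.2 and 30.9 in tumors and 6.96, 4.81, 9.14 and 4.94 in normal intestine, all of them dim (adjusted p 0.233 in limma).

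Il1b, the inflammatory IL-1 cytokine, was at 354 and 105 in Dnmt+/- and Dnmt+/+ tumors on diet #2 and at 338 and 146 on diet #3, against 56.7 and 24.6, and 62.8 and 81.8 in normal intestine. The log2 difference was 1.65 ± 0.38 (3.13-fold, adjusted p 0.0483 in limma), and with every probe set in the fit the adjusted p was 0.0566. The 2 Dnmt+/- tumor arrays were the highest. Il1a, the other IL-1 agonist, had 127, 142, 115 and 74.4 in tumors and 77.5, 75.9, 108 and 116 in normal intestine, with overlap.

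Il18bp encodes the soluble protein that binds and neutralises IL-18. It was at 104 and 161 in Dnmt+/- and Dnmt+/+ tumors on diet #2 and at 79.6 and 28.2 on diet #3, against 416 and 425, and 138 and 226 in normal intestine. The log2 difference was -1.96 ± 0.27 (3.88-fold lower, adjusted p 0.0137 in limma). The tumor array at 161 overlapped with the normal array at 138, of another diet, and within each diet the tissues did not overlap. The highest values were those of the 2 diet #2 normal arrays, which also had the high pancreatic sums, and the diet #3 arrays were without such sums. The receptor chain Il18r1 had 27.0, 49.1, 110 and 81.2 in tumors and 46.2, 72.1, 128 and 101 in normal intestine, lower in 4 of 4 pairs (-0.59 ± 0.20, adjusted p 0.116 in limma). Its partner Il18rap had 72.9, 28.9, 162 and 131 in tumors and 17.4, 21.9, 159 and 32.4 in normal intestine. The ligand and its binding protein were thus both called lower, and neither receptor chain passed.

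Il15, a growth factor of intraepithelial lymphocytes and NK cells, was at 89.7 and 71.3 in Dnmt+/- and Dnmt+/+ tumors on diet #2 and at 70.1 and 58.3 on diet #3. The normal arrays had 132 and 117 on diet #2 and 95.05 and 123 on diet #3. It was 1.96-fold lower in tumors (log2 difference -0.97 ± 0.14, adjusted p 0.0154 in limma), and the groups did not overlap. Il17ra was called in this fit with a log2 difference of -0.20 (adjusted p 0.0342 in limma), but its direction depends on the normalization. Its deposited intensities were 424, 473, 514 and 555 in tumors and 415, 426, 479.5 and 594 in normal intestine, so the tumor was higher in 3 of 4 pairs. Its second probe set differed by 0.01 in the same fit with every probe set.

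Other dim chemokine ligands were higher in tumors by their values without passing. Ccl8, a further monocyte attractant, had 298, 96.6, 324 and 108 in tumors and 42.2, 26.2, 182 and 61.5 in normal intestine (adjusted p 0.0936 in limma). Cxcl2, the neighbour of Cxcl1 and likewise a ligand of Cxcr2, had 44.7, 75.2, 173 and 61.7 in tumors and 21.4, 11.8, 23.8 and 8.79 in normal intestine (adjusted p 0.176 in limma), without overlap. All 4 normal arrays were at the floor for Cxcl2. A second probe set of Cxcl1, also dim, differed by 1.91 in the same fit with every probe set (adjusted p 0.00856 in limma), where the first had an adjusted p of 0.0543.

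Ccl17, a ligand of Ccr4, had 49.5, 24.5, 191 and 40.2 in tumors and 17.9, 41.1, 39.6 and 18.7 in normal intestine. Cxcl10, another ligand of Cxcr3, had 46.4, 30.5, 118 and 67.1 in tumors and 36.8, 49.2, 53.6 and 65.3 in normal intestine. Cxcl13, which draws B cells into follicles, had 53.5, 59.0, 181 and 27.5 in tumors and 55.2, 60.9, 4.87 and 24.2 in normal intestine. In all 3, the Dnmt+/- tumor array of diet #3 was the highest and the remaining arrays overlapped. Ccl3 had 58.4, 63.7, 103 and 81.1 in tumors and 35.3, 96.7, 109 and 87.3 in normal intestine, and the Ccl1 probe set used in that fit had 181, 199, 159 and 138 in tumors and 62.1, 200.4, 201 and 70.3 in normal intestine, with overlap in both. The other probe set of Ccl1 had 27.9, 69.3, 72.1 and 11.4 in tumors and 34.3, 3.74, 31.7 and 12.6 in normal intestine.

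Among the chemokine receptors, Ccr7, which guides dendritic cells and naive T cells, had 34.0, 36.8, 167 and 30.2 in tumors and 8.94, 17.6, 9.75 and 8.79 in normal intestine, without overlap. In the added fit 3 tumor arrays and all 4 normal arrays were at the floor for Ccr7. Cxcr5, the receptor of Cxcl13, had 12.4, 15.0, 159 and 25.5 in tumors and 13.9, 43.8, 16.5 and 19.2 in normal intestine. Cxcr2, the receptor of Cxcl1, Cxcl2 and Cxcl5, had 24.3, 43.1, 134 and 91.9 in tumors and 23.9, 40.6, 39.0 and 48.3 in normal intestine. In all 3 the Dnmt+/- tumor array of diet #3 was again the highest, and none passed the added fit.

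Cxcr4, the receptor of Cxcl12, had 45.5, 112.4, 136 and 102 in tumors and 48.7, 37.9, 46.9 and 59.3 in normal intestine, higher in 3 of 4 pairs (log2 difference 0.74 ± 0.29, adjusted p 0.165 in limma). Ccr6, the receptor of the epithelial chemokine Ccl20, had 57.9, 42.4, 205 and 107 in tumors and 31.8, 159, 40.8 and 25.3 in normal intestine. Ccr2 had 91.5, 58.2, 136 and 40.9 in tumors and 90.9, 21.4, 102 and 17.6 in normal intestine, with the Dnmt+/- array above the Dnmt+/+ array in each of the 4 matched comparisons. The tissues overlapped for these receptors.

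Ccr1, a receptor of Ccl9, had 189, 163, 118 and 91.9 in tumors and 105, 118, 96.3 and 159 in normal intestine. Ccr9, the receptor of Ccl25, had 95.04, 103, 117 and 174 in tumors and 77.02, 86.6, 96.9 and 137 in normal intestine, with a log2 difference of 0.03 ± 0.13. Neither receptor passed, and the tissues overlapped for both.

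Of the remaining interleukins, Il11, a cytokine that signals through gp130, had 74.7, 85.9, 129 and 24.1 in tumors and 11.9, 16.0, 14.6 and 9.88 in normal intestine, without overlap and with all 4 normal arrays at the floor (adjusted p 0.143 in limma). Il5, the eosinophil growth factor, had 103, 108, 124 and 122 in tumors and 102, 85.0, 72.5 and 100.5 in normal intestine, with all tumor values above all normal values but a log2 difference of 0.09 ± 0.17.

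On diet #3 relative to diet #2, 3 of the 28 tested genes were higher and 0 lower (10.7%), against 9.28% of all features (5.69% higher, 3.59% lower; limma, with the sample code as a block). Ccl9 rose by 0.75 ± 0.12 (SE, 4 arrays each), or 1.68-fold, with an adjusted p of 0.0106. Its values were 1926 and 1611 in tumors on diet #3 against 1037 and 913 on diet #2, and 704 and 558 in normal intestine on diet #3 against 380 and 424 on diet #2. It was the 1 gene called both by tissue and by diet. Ccl9 passed without the sample code as a block, where neither of the others did, and none of the 3 passed on unnormalized values.

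**Figure D4:**
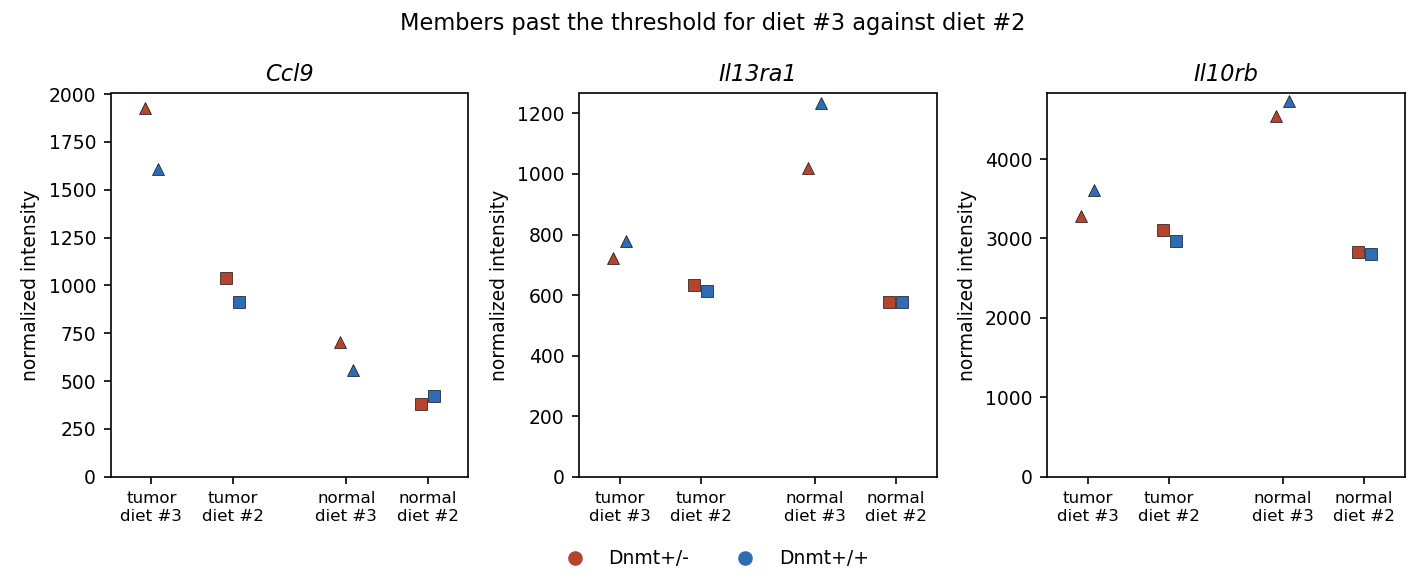
Normalized intensity of the 3 genes past the threshold for diet #3 against diet #2, with 1 point for each array; colour gives the Dnmt genotype. Ccl9 is higher on diet #3 in both tissues, whereas Il13ra1 and Il10rb stand apart mainly in normal intestine.

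Il13ra1, the IL-13 binding chain that pairs with Il4ra, rose by 0.61 ± 0.14 on diet #3 (1.53-fold, adjusted p 0.032 in limma). Tumors had 723 and 780 on diet #3 against 633 and 612 on diet #2, and normal intestine had 1019 and 1233 on diet #3 against 578 and 579 on diet #2. Il10rb, the chain shared by receptors of the IL-10 family, rose by 0.45 ± 0.11 (1.37-fold, adjusted p 0.0378 in limma). Tumors had 3285 and 3605 on diet #3 against 3104 and 2973 on diet #2, and normal intestine had 4544 and 4729 on diet #3 against 2828 and 2809 on diet #2. The diet #2 normal arrays were those with the high pancreatic sums. The part of that in these differences was not tested. The next 2 by p did not pass. Ccl11 differed by -0.77 (adjusted p 0.0535 in limma) and Il17ra by 0.36 (adjusted p 0.0671), each in the same direction in 4 of 4 matched arrays. Values of diet #1 were in another format and are not set against the other diets.

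For Dnmt+/- against Dnmt+/+, 0 of the 28 genes passed in limma with the sample code as a block, against 3 of all 6400 features (0.0469%). At an unadjusted p under 0.05 there were 4 of 28 (14.3%), against 7.05% of all features. The 5 genes of smallest p were all higher in heterozygous mice. Cxcr3 differed by 0.64 ± 0.18 (limma p 0.00558, adjusted p 0.672) and Cxcl5 by 0.89 ± 0.34 (p 0.028, adjusted p 0.698), with Cxcl5 higher in 6 of 6 matched arrays and Cxcr3 in 5 of 6. Without the Dnmt+/- tumor array of diet #3 the Cxcl5 difference was 0.48, and without the 4 diet #1 arrays it was 1.37. With the floor at the 40th percentile the Cxcr3 difference was 0.18. Il2rb differed by 0.66 (p 0.0347), Ccl9 by 0.22 (p 0.0496) and Ccl6 by 0.26 (p 0.066), each in 5 of 6, with adjusted p-values of 0.698 to 0.702 in limma. Without the Dnmt+/+ tumor array of diet #1 the Il2rb difference was 0.37, and without the Dnmt+/- normal array of that diet the Ccl6 difference was 0.16. On unnormalized values Ccl9 differed by 0.10 and Ccl6 by 0.15.

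The tumor difference was also compared between genotypes and between diets #3 and #2. By genotype, 0 of 28 genes and 0% of all features passed in limma, and 1 gene had an unadjusted p under 0.05, against 2.8% of features. That gene was Ccl11, with a tumor difference of 0.21 in Dnmt+/- mice and -0.70 in Dnmt+/+ mice (p 0.00862, adjusted p 1 in limma). Next by p came Il1r1, Ccl25, Ccl5 and Cxcl9, with unadjusted limma p-values of 0.0731, 0.0874, 0.126 and 0.137. Ccl25 was -1.27 in Dnmt+/- and -0.77 in Dnmt+/+ mice, and Ccl5 was -1.01 in Dnmt+/- and -1.96 in Dnmt+/+ mice.

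By diet, 0 of 28 genes passed in limma, against 0.344% of all features, and 3 had an unadjusted p under 0.05, against 10.3% of features. Cxcl12 had a tumor difference of 0.10 on diet #3 and -0.77 on diet #2 (adjusted p 0.35 in limma). Il13ra1 had -0.58 on diet #3 and 0.11 on diet #2 (adjusted p 0.361), and Il10rb had -0.43 on diet #3 and 0.11 on diet #2 (adjusted p 0.392). Ccl6 and Il16 followed, with unadjusted limma p-values of 0.156 and 0.18. The number of arrays, 2 for each tissue and diet, limits the precision of these interactions.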

How the data were processed

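Per the labels, labelled RNA was hybridised to single-colour MG_U74Av2 arrays. The authors deposited 1 linear intensity for each probe set, made with software not given in the sources used here. For diet #1 they were not scaled and carried a floor of 50; for diets #2 and #3 they had a mean of 1000. After removal of 66 control probe sets, which include 2 for Il4 and Il10, 12422 were quantile normalized, floored at the 20th percentile and put on the log2 scale. Features in the lowest 40% by mean were removed, and a gene with several probe sets was represented by its brightest. Second probe sets come from a fit of every probe set.

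The platform annotation named 1 gene on 10833 probe sets, more than 1 on 396 and no gene on 1193; 10817 were matched to RefSeq by Entrez ID, which changed 0 symbols.

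Tests used limma 3.58.1 in R 4.3.3, with Benjamini-Hochberg adjustment over all features and a threshold of 0.05. Tissue was fitted with diet and genotype. Genotype and diet used the sample code as a random block (correlation -0.16), and the interactions were terms in models with the remaining factor. Scripts were tested on simulated data with 200 changed features. There, at the threshold of 0.05, 5.14% of calls were false for tissue and 9.36% for genotype. For diet #3 against diet #2 it was 10.7%, so the error rate of diet calls may exceed the threshold. The codes pair arrays by label: deviations from group means correlated at 0.45 to 0.75 within every code, and at -0.57 to -0.38 once diet and genotype were removed.

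The genes, gene lists and tests were chosen with earlier results of these data known. Every gene of the set was accounted for. All genes past the threshold were named with values, in other contrasts at least the 5 of smallest p, and of each pathway list the 3 largest differences past the threshold. The remaining tested genes are given by their tissue difference, and untested genes by array where any value lay above the filter level. Single genes of the marker lists were picked after their values were seen. Alternatives changed normalization, floor, filter, probe set choice, variance, block and arrays; 2 without diet #1 and the filter were added after seeing the data.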

Additional observations from a re-analysis of the deposited data

Results flagged for a closer look

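Single arrays stood apart from the other 5 of their tissue for 3 of the 56 sets of 6 arrays examined, where chance gives about 1 in 20. On the log2 scale, the gap to the nearest array was 0.635 to 0.664 of the whole range. In each set this share exceeded Dixon's 95% limit for 6 values. Cxcl5 was at 977 on the Dnmt+/- tumor array of diet #3, with the other tumor arrays at 123 to 246. Cxcl1 was at 47.4 on the Dnmt+/- tumor array of diet #1, with the others at 179 to 371. Il1r2 was at 48.9 on the Dnmt+/- normal array of diet #1, with the others at 117 to 194. Both diet #1 values correspond to the value 50 in the deposited data. For Il1r2, the Dnmt+/+ normal array of diet #1 had a deposited 53.8, close to 50, which became 128 after normalization.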

How the results depend on the processing

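Of the 8 genes called by tissue, Ccl9, Il18, Ccl25 and Il4ra passed under every alternative but the diet #1 arrays alone, where 0 were higher and 0 lower. Of 27 alternatives, 25 kept the count of genes called higher, and 25 that of genes called lower, within 1.5 times. With the lowest 60% left out, 2 were higher, because Cxcl5 and Cxcl1 were not tested. With median scaling, 9 were lower, and the median of all features moved by -0.10. It moved by 0.13 on unnormalized values. Leaving out 1 array gave 4 higher each time and 3 to 5 lower. Cxcl12 passed in 5 of 26 alternatives. With the sample code as a replicate block, Cxcl12 had an adjusted p of 0.0814 (limma), and no other tissue call changed.

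The count for diet #3 against diet #2, 3 as reported, was 5 with median scaling, 0 on unnormalized values, 5 with the floor at the 40th percentile, 9 without the diet #1 arrays and 1 with no replicate block. With no filter, Ccl9 and Il18r1 passed, and Il13ra1 and Il10rb did not. The count ran from 1 to 6 with 1 array left out. It was 1, with Ccl9 alone, when the left-out array was either normal array of diet #2 or #3 or the Dnmt+/+ tumor array of diet #2. It was 5 or 6 when it was either tumor array or the Dnmt+/+ normal array of diet #1. Genotype and both interactions gave 0 under every alternative run. None of the differences recomputed under the alternatives, which are the called genes and the 5 of smallest p, reversed. Among the uncalled tissue differences, Il7r was -0.30, Il6ra -0.13 and Ccl22 0.00 without the diet #1 arrays and the filter, against 0.20, 0.20 and -0.12 as reported. The cause of these shifts was not tested. Signal near the floor limits what can be read for the 51 dim genes.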

Other observations

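Among the 8 arrays of diets #2 and #3, the Dnmt+/- tumor array of diet #3 had the highest deposited intensity for 27 of the 79 genes (34.2%), against 19.0% of 9840 features. For the 51 genes that did not pass the filter it was 18 (35.3%), against 24.9% of 3523 features left out by the filter. The other 3 tumor arrays were highest for 9, 7 and 6 of the 79. On the same array, 7 of 11 B and plasma cell markers, 9 of 17 T and NK cell markers and 7 of 12 neutrophil markers were highest. So were 5 of 15 macrophage and dendritic cell, 3 of 13 mast cell, 2 of 11 fibroblast, 1 of 11 exocrine pancreas, 0 of 12 intestinal epithelial and 0 of 10 endothelial markers. The genes include Ccl17, Cxcl13, Ccr6, Ccr7 and Cxcr5, which were named after their values were seen. This is 1 array, and the part of these cells in its values was not tested.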
